A study of Mus musculus with 7 samples.

Results

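Toll-like receptor genes of sorted mouse alveolar macrophages, which patrol the air side of the lung, were compared between Cish knockout (KO) and wild-type (WT) animals. The family was taken as the rows named Tlr1, Tlr2, Tlr3, Tlr4, Tlr5, Tlr6, Tlr7, Tlr8, Tlr9 and Tlr13, and all 10 were found among the 26143 rows with a gene symbol. There were 3 KO libraries, labelled Cish KO on C57BL/6 at 4 months of age, and 4 WT libraries of the same strain and age. The Cish protein belongs to the SOCS group of feedback inhibitors of cytokine receptors, and the series asks how it shapes macrophage programming in the lung. The labels name neither the sex of the animals nor the number of animals behind a library, so the p-values below reflect library-to-library spread, which may be technical.

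Toll-like receptors recognise conserved microbial molecules. Tlr1, Tlr2, Tlr4, Tlr5 and Tlr6 act at the cell surface on lipoproteins, lipopolysaccharide and flagellin, whereas Tlr3, Tlr7, Tlr8, Tlr9 and Tlr13 act in endosomes on nucleic acids. Most members signal through the adaptor Myd88, while Tlr3 uses Ticam1 (TRIF) and Tlr4 uses both. Alveolar macrophages meet inhaled microbes first, and their receptor repertoire is known to differ from that of macrophages elsewhere.

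Total counts were 26780291 to 30989230 in KO and 30637634 to 34483612 in WT libraries. On the first principal component of all tested genes, which held 42.6% of the variance, the KO libraries lay at 18.3 to 43.9, whereas WT 1 to WT 3 lay at -39.4 to -24.1 and WT 4 apart from them at 7.27. Reads of Cish were present in every library, at 10.9 to 14.3 CPM (counts scaled to library size with TMM factors) in KO and 29.6 to 67.9 CPM in WT. The fold change of Cish was -1.84 on the log2 scale, with an adjusted p of 0.0519 by edgeR's quasi-likelihood test with Benjamini-Hochberg adjustment and of 2.81e-11 by DESeq2. All 12 alveolar macrophage markers passed the filter. Of these, 8 rose in KO and 4 fell, and the median change was 0.17 on the log2 scale. At an unadjusted p below 0.05, 3 were higher and 2 lower, against 9.15% and 8.85% of all genes. DESeq2 called 2 lower, against 3.02% of all genes it tested, and edgeR called 0. The receptor Siglecf, among those called lower, was at 372 to 455 CPM in KO and 521 to 587 CPM in WT. The summed level of all 12 markers was 49440 to 82600 CPM in KO and 24360 to 60620 CPM in WT, mostly Chil3. Neutrophil markers summed to 13.1 to 34.6 CPM in KO and 7.60 to 19.7 CPM in WT, with Ly6g at 0 reads in all 7 libraries, and monocyte markers to 5.94 to 14.5 CPM and 4.77 to 11.8 CPM. Endothelial markers summed to 3.13 to 7.76 CPM in KO and 0.636 to 2.53 CPM in WT, and DESeq2 called all 3 higher, against 2.68% of all genes it tested. Conventional dendritic cell markers summed to 3.42 to 8.13 CPM in KO and 4.53 to 6.23 CPM in WT, and T and NK cell markers to 2.28 to 8.09 CPM and 1.85 to 4.66 CPM. Epithelial markers summed to 151.8 to 189.4 CPM in KO and 187.2 to 370.4 CPM in WT, with 1 of the 5 lower in KO and 4 higher, at a median log2 fold change of 0.93, and none called by either tool. The lower gene was Epcam, at 9.24 to 92.6 CPM in KO and 135.4 to 301.8 CPM in WT, while the fold changes of Sftpc, Sftpb, Scgb1a1 and Cdh1 were 0.93, 1.00, 1.60 and 0.67 on the log2 scale. Of these 5, 1 was higher and 1 lower at an unadjusted p below 0.05, against 9.15% and 8.85% of all genes. The part of these other cells in any receptor value was not tested.

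The promoters of 3 receptors are given because the results turn on them: Tlr5 and Tlr13 had the smallest p-values of the family, and Tlr9 lies beside a gene that was called lower in KO. Each line is the 250 bases before a start listed by RefSeq on GRCm38.p6, the build also called mm10, written 5′ to 3′ on the gene's strand. The regions are chr1:182954538-182954787 on the plus strand for Tlr5, chrX:106143025-106143274 on the plus strand for Tlr13 and chr9:106222348-106222597 on the plus strand for Tlr9. Capitals mark matches, on either strand, to 4 short motifs.
Tlr5: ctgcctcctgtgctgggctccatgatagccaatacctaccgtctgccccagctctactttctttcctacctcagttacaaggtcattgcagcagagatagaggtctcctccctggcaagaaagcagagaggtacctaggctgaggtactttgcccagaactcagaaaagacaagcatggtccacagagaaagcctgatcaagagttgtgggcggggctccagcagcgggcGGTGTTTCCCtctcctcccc
Tlr13: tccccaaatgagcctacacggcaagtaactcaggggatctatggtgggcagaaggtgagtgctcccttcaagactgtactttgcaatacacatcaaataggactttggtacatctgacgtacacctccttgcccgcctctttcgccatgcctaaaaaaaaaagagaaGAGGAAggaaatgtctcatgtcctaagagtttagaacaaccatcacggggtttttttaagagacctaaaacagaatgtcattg
Tlr9: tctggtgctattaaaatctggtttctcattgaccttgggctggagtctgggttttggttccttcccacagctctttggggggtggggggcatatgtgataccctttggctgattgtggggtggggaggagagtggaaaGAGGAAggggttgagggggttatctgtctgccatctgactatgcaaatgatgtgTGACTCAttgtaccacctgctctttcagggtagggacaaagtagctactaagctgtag

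The motifs searched were TTCNNNGAA (bound by STAT5), GAGGAA (bound by the myeloid factor PU.1), the NF-kB core of GGGA and CC with any 4 bases between, and TGANTCA (bound by AP-1). No pair of these motifs overlapped within the 3 sequences shown. The Tlr5 sequence held a single NF-kB core beginning 20 bases before the start, on the opposite strand. The start listed for Tlr5 lies within the gene's span, which opens at 182954752, and so does this match. The sequence of Tlr13 held a PU.1 core beginning 83 bases before the start. That of Tlr9 held a PU.1 core beginning 112 bases and an AP-1 core beginning 58 bases before the start. Of the 10 receptors, 8 had a promoter in the RefSeq table, which gave Tlr1 and Tlr6 more than 1 start. The starts listed for Tlr1, Tlr2, Tlr3 and Tlr6 also lay within the spans of these genes. Receptors were counted when any of their windows matched, with 10 windows for the 8, whereas the background was counted by window. The STAT5 core was found for 2 of these 8, Tlr1, in only 1 of its windows, and Tlr8, against 7.02% of all 32851 promoter windows. The PU.1 core was found for 4, against 23.3% of all windows, the NF-kB core for 3, against 17.6%, and the AP-1 core for 1, against 6.75%. These letter matches describe the sequence and say nothing of binding.

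The first question was which receptors these cells transcribe. Tlr2 was by far the most abundant in both genotypes, Tlr4 came next, and 3 endosomal RNA sensors, Tlr7, Tlr8 and Tlr13, followed. Tlr5, Tlr6 and Tlr3 were low, Tlr1 was close to the limit of a few reads, and Tlr9 was all but absent. Levels of different genes were compared as CPM per kilobase of merged exon, with lengths of 3.01 to 5.47 kb from the GENCODE M21 basic annotation. The annotation behind the deposited counts is not given in the sources used here. The same descending order of the 5 most abundant receptors was found in both genotypes, also with the comprehensive annotation.

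Tlr2, the lipoprotein receptor, reached 423 ± 101 CPM per kilobase in KO (SD, n = 3) and 535 ± 128 CPM per kilobase in WT (SD, n = 4). It made up 81.4% to 86.6% of the family's summed CPM per kilobase in KO libraries and 84.4% to 88.6% in WT libraries. Tlr4, the lipopolysaccharide receptor, was at 34.6 ± 5.29 CPM per kilobase in KO and 29.7 ± 2.01 CPM per kilobase in WT, and its libraries lay well apart from those of Tlr2 and of Tlr7. Tlr7, which senses single-stranded RNA, was at 17.6 ± 1.18 CPM per kilobase in KO and 17.6 ± 2.28 CPM per kilobase in WT. Tlr8, which binds RNA breakdown products in human cells, was at 12.6 ± 0.0593 CPM per kilobase in KO and 14.0 ± 2.63 CPM per kilobase in WT. Tlr13, a sensor of bacterial ribosomal RNA that humans lack, was at 8.70 ± 1.86 CPM per kilobase in KO and 11.5 ± 1.71 CPM per kilobase in WT. Among WT libraries the ranges of Tlr7 and Tlr8 overlapped, as did those of Tlr8 and Tlr13. Compared within each WT library, Tlr7 always lay above Tlr8. Tlr13 lay above Tlr8 in WT 1 and below it in the other WT libraries, so the order of Tlr8 and Tlr13 was not constant. Among KO libraries none of those 3 ranges overlapped.

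The 3 low receptors lay together. Tlr6, which pairs with Tlr2 for diacylated lipoproteins, was at 2.01 ± 0.302 CPM per kilobase in KO and 2.02 ± 0.237 CPM per kilobase in WT. Tlr3, the receptor for double-stranded RNA, was at 1.61 ± 0.320 CPM per kilobase in KO and 1.44 ± 0.0755 CPM per kilobase in WT. Tlr5, the flagellin receptor, was at 1.36 ± 0.101 CPM per kilobase in KO and 2.45 ± 0.676 CPM per kilobase in WT, so it came eighth in KO and sixth in WT. Neighbours in the order overlapped in KO, Tlr6 with Tlr3 and Tlr3 with Tlr5. In WT the ranges of Tlr5 and Tlr6 overlapped, while all WT libraries of Tlr6 lay above those of Tlr3.

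Tlr1, which pairs with Tlr2 for triacylated lipoproteins, had 9, 3 and 4 reads in KO 1 to KO 3 and 5, 12, 5 and 11 reads in WT 1 to WT 4. Tlr6, its neighbour and close paralog on chromosome 5, had 262, 169 and 189 reads in KO and 291, 203, 256 and 228 reads in WT. How the authors counted reads that map to several places is not given, so reads of this pair may be shared. Tlr9, the receptor for unmethylated CpG DNA, had 0 reads in all 3 KO libraries and 1 read in all, in WT 3, among the WT libraries. A count of 0 allows a level of up to 0.099 to 0.12 CPM in a KO library and 0.084 to 0.094 CPM in the other WT libraries, a limit that covers counting error only. Markers of cell types known for Tlr9 were also scarce. B cell markers summed to 1.87 to 3.04 CPM in KO and 0.954 to 3.44 CPM in WT, and plasmacytoid dendritic cell markers to 1.03 to 1.78 CPM and 0.476 to 0.827 CPM. Tlr11 and Tlr12, mouse receptors outside the list that recognise protozoan profilin, had 1 to 13 and 0 to 1 reads in KO libraries and 1 to 9 and 0 to 1 reads in WT libraries.

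**Figure D1:**
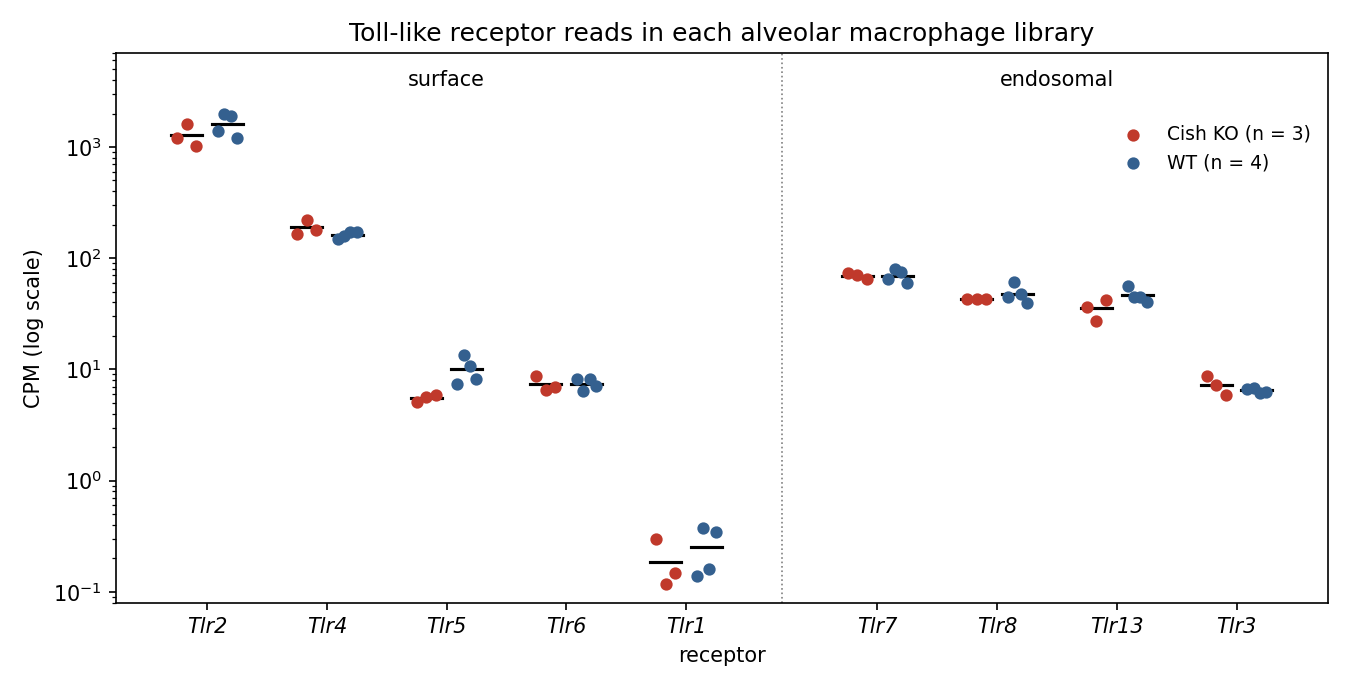
CPM on a log scale for 9 receptors in each library, with KO (n = 3) left of WT (n = 4) and bars at the group means; Tlr9, with 1 read in all, is not drawn. Tlr2 stands at 1017 CPM or more in every library and Tlr1 at 0.375 CPM or less, and among the 8 tested receptors only for Tlr5 do all KO points lie below all WT points.

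The next question was whether the receptors differed between the genotypes. Of the 10 receptors, 8 passed the filter on low counts, 4 at the surface and 4 in endosomes, while Tlr1 and Tlr9 did not. edgeR's quasi-likelihood test called 0 of the 8, against 0.0862% of the 12759 genes tested. Tlr5 and Tlr13, 2 of the 8, had an unadjusted p below 0.05, against 18.0% of all genes, and DESeq2 called only Tlr5, against 5.71%. The groups did not overlap for 1 of the 8, again Tlr5, against 16.0% of all genes. The median log2 fold change of the 8 was -0.08, with 3 higher and 5 lower in KO, and that of all genes tested was 0.00. The 8 are the receptors that passed the filter and not the whole family.

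Tlr5 had the largest difference. Its KO libraries, in order of number, had 5.08, 5.67 and 5.88 CPM, and its WT libraries 7.44, 13.6, 10.8 and 8.26 CPM. All KO libraries lay below all WT libraries, and the WT libraries were spread more widely, with WT 2 the highest. The mean was 1.80-fold lower in KO, and the fitted log2 change was -0.85 (SE 0.22) with a 95% interval of -1.34 to -0.36. The adjusted p was 0.111 by edgeR's quasi-likelihood test with Benjamini-Hochberg adjustment and 0.00726 by DESeq2. Tlr5 remained lower in KO under all 15 alternatives, from -0.98 to -0.67, and the edgeR adjusted p passed only without a filter on low counts (0.0394). It was 0.0859 with WT 4 and KO 3 left out together, where 590 genes were called over the whole table, against 11 with all libraries. Tlr5 lies on chromosome 1 at 182954752 to 182976044. The deposited counts are of bulk RNA, in which fewer cells carrying a transcript and less transcript per cell cannot be told apart.

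Tlr2 was at 1192, 1611 and 1017 CPM in KO and at 1378, 1987, 1885 and 1196 CPM in WT. KO 3 was the lowest and WT 2 the highest, and KO 2 lay above WT 1 and WT 4. For Tlr2 the log2 fold change of -0.34 (95% interval -0.81 to 0.13) had an edgeR adjusted p of 0.424. Tlr4 went the other way in its means, with 166, 221 and 180 CPM in KO and 149, 158, 170 and 172 CPM in WT. KO 2 stood above the rest and KO 1 within the WT range, with a log2 fold change of 0.22 (95% interval -0.03 to 0.47) and an edgeR adjusted p of 0.334. Tlr6 was at 8.65, 6.57 and 6.95 CPM in KO and 8.14, 6.35, 8.14 and 7.13 CPM in WT, which gave a log2 fold change of -0.01 (95% interval -0.37 to 0.35) whose sign varied between alternatives.

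Among the endosomal receptors Tlr13 had the smallest p. It was at 36.3, 27.3 and 42.4 CPM in KO and at 56.3, 45.1, 44.8 and 40.0 CPM in WT, with KO 3 above WT 4. For Tlr13 the log2 fold change was -0.40 (SE 0.16, 95% interval -0.76 to -0.03), with adjusted p-values of 0.241 (edgeR) and 0.151 (DESeq2). Without WT 4 and KO 3, its lowest WT and highest KO library, it was -0.61 with an edgeR adjusted p of 0.0767. Leaving both out raised the genes called over the whole table from 11 to 590. Without KO 2 the log2 fold change of Tlr13 was -0.25. Tlr7 was at 73.8, 71.1 and 64.6 CPM in KO and at 65.0, 79.8, 74.4 and 59.8 CPM in WT, all KO values within the WT range. Its log2 fold change of 0.00 had a 95% interval of -0.25 to 0.25, the sign varying between alternatives. Tlr8 was at 43.2, 42.9 and 43.2 CPM in KO and at 44.6, 60.7, 47.3 and 39.5 CPM in WT, which gave a log2 fold change of -0.16 (95% interval -0.46 to 0.14). Tlr3 was at 8.72, 7.19 and 5.85 CPM in KO and at 6.66, 6.85, 6.14 and 6.23 CPM in WT, with KO 1 the highest and KO 3 the lowest of all, and a log2 fold change of 0.17 (95% interval -0.20 to 0.53). For 7 of the 8 receptors, all but Tlr5, the interval lay within a 2-fold change in either direction.

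**Figure D2:**
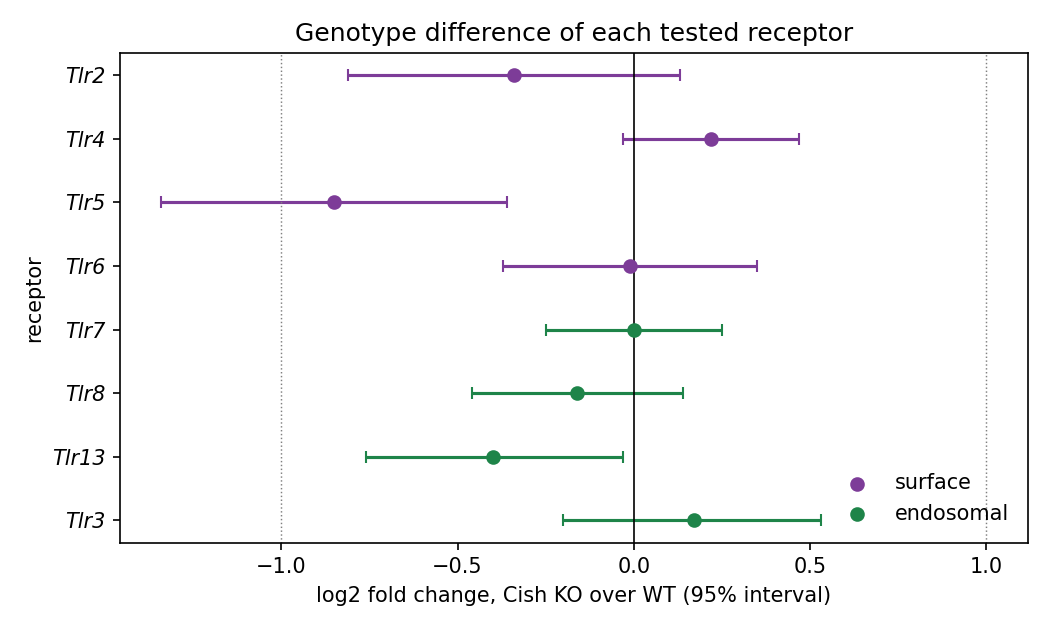
The log2 fold change of KO (n = 3) over WT (n = 4) by edgeR for the 8 tested receptors, with 95% intervals; dotted lines mark a 2-fold change. The interval of Tlr5, -1.34 to -0.36, reaches beyond the line at -1, and those of Tlr2, Tlr4, Tlr6, Tlr7, Tlr8 and Tlr3 include 0.

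Tlr7 and Tlr8 lie side by side on the X chromosome, 39.1 kb apart, and Tlr13 lies on the same chromosome 61.1 Mb away. Xist, the RNA that marks an inactive X, had 0 to 1 reads in KO libraries and 0 reads in WT libraries, and the Y-linked Ddx3y was at 82.4 to 94.9 CPM in KO and 77.1 to 105.8 CPM in WT. All 7 libraries were thus alike in these sex-linked transcripts.

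Surface and endosomal receptors were also set against each other. The 5 surface receptors summed to 1476 ± 330 CPM in KO (SD, n = 3) and 1791 ± 387 CPM in WT (SD, n = 4), mostly Tlr2. The 5 endosomal receptors summed to 155.5 ± 6.78 CPM in KO and 170.8 ± 19.3 CPM in WT. The mean log2 CPM of the 5 surface receptors minus that of the 5 endosomal receptors was 1.12, 1.19 and 1.03 in the KO libraries and 1.03, 1.39, 1.21 and 1.40 in the WT libraries. The groups overlapped, and the means of 1.11 ± 0.08 in KO and 1.26 ± 0.17 in WT differed by -0.15, less than the SD of the WT libraries. Over the 8 tested receptors, without the near-empty Tlr1 and Tlr9, the difference was -0.14. Leaving out Tlr5 changed it to -0.01 over the other 9 receptors and to 0.05 over the other 7 tested ones, and leaving out WT 4 and KO 3 together gave -0.06. The 3 variants in receptors were chosen after the values were seen, and no test was made of this score.

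Tlr9 is the member nearest to the targeted gene, on chromosome 9 at 106222598 to 106226876, 1.07 Mb from Cish. On the side towards Cish, 6.6 kb away, lies Alas1, which catalyses the committed step of heme production. Alas1 fell in KO to 152.2, 168.6 and 151.1 CPM, against 708.5, 586.1, 715.7 and 663.2 CPM in WT. Its log2 change was -2.09 (SE 0.10, edgeR adjusted p 1.81e-05), and it was called under all 15 alternatives. On the other side, 7.2 kb away, lies Twf2, an actin-binding protein. Twf2 was at 82.3, 81.2 and 80.0 CPM in KO and at 108.0, 107.4, 110.3 and 102.2 CPM in WT, without overlap. Its log2 fold change of -0.40 (SE 0.07) had adjusted p-values of 0.0718 (edgeR) and 7.22e-05 (DESeq2). It passed edgeR without WT 4 (0.0379), the WT library nearest to KO, where 284 genes were called over the whole table. With any other single library left out its edgeR adjusted p was 0.0637 to 0.297. The other neighbours within 100 kb, Ppm1m, Wdr82, Glyctk and Poc1a, had log2 fold changes of -0.07, -0.13, -0.14 and -0.35, none called by either tool. Of 53 tested protein-coding genes within 2 Mb, edgeR called 4, against 0.0862% of all genes, and DESeq2 called 13, against 5.71%. Of those 13, 10 were lower in KO, Cish among them. With 1 read in 7 libraries, no genotype difference of Tlr9 was detectable at this depth.

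**Figure D3:**
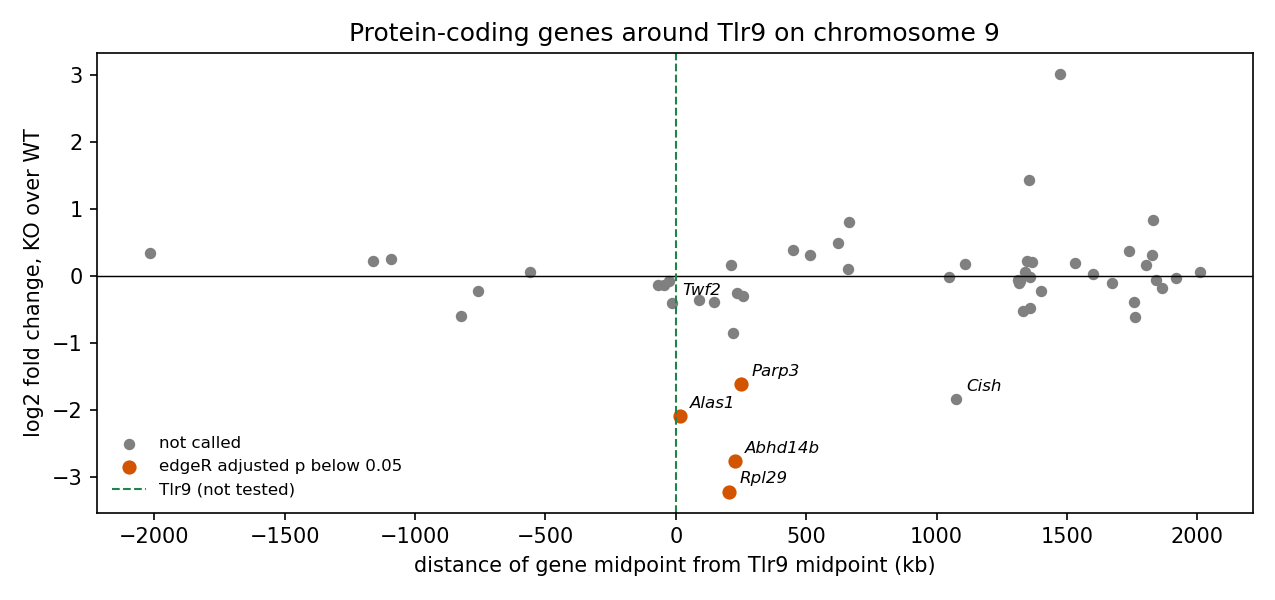
The log2 fold change of KO over WT by edgeR for the 53 tested protein-coding genes within 2 Mb of Tlr9, by distance of the gene midpoints in kb. The 4 called genes, Alas1, Rpl29, Abhd14b and Parp3, lie on the side of Tlr9 that faces Cish.

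Genes that fold, deliver and connect the receptors, genes that the receptors are known to induce, and other pattern receptors were examined by role. Of 96 tested genes in 9 such lists, edgeR called 0, with 15 higher and 9 lower at an unadjusted p below 0.05, against 9.15% and 8.85% of all genes. The list of induced genes held 6 of those 15. DESeq2 called 3 higher and 4 lower, against 2.68% and 3.02% of all genes. The groups did not overlap for 10 genes higher and 10 lower in KO, against 7.23% and 8.72% of all genes. The median log2 fold change of the 96 was 0.08, with 54 higher and 42 lower in KO, and that of all genes tested was 0.00.

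The adaptors differed in sign, and none passed edgeR's threshold in the comparison of all libraries. Myd88 was at 193, 217 and 198 CPM in KO and at 249, 271, 241 and 232 CPM in WT, all KO libraries below all WT libraries. Its log2 fold change of -0.29 (95% interval -0.49 to -0.10) had adjusted p-values of 0.141 (edgeR) and 0.0426 (DESeq2). Ticam2 (TRAM), which links Tlr4 to Ticam1, was at 60.7, 67.5 and 59.7 CPM in KO and at 51.5, 46.2, 45.5 and 51.4 CPM in WT, again without overlap but higher in KO. For Ticam2 the log2 fold change of 0.36 had adjusted p-values of 0.0975 (edgeR) and 0.0188 (DESeq2). Ticam1 was at 9.41, 8.24 and 7.91 CPM in KO and at 5.26, 4.81, 4.87 and 7.54 CPM in WT, with WT 4 close to the KO libraries. For Ticam1 the log2 fold change of 0.60 had an edgeR adjusted p of 0.161, or 0.0463 without WT 4. Leaving out WT 4 raised the genes called over the whole table from 11 to 284. With any other single library left out the edgeR adjusted p of Ticam1 was 0.170 to 0.516. Tirap, the bridging adaptor of Tlr2 and Tlr4, had a log2 fold change of -0.14 and Pik3ap1, which couples the receptors to PI3-kinase, of -0.23, while Sarm1 did not pass the filter. The 5 tested adaptors had a median of -0.14, with 2 higher and 3 lower.

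Surface co-receptors gave 0 calls by either tool among 6 tested genes, with 4 higher and 2 lower and a median of 0.14. The count at an unadjusted p below 0.05 was 0, against 18.0% of all genes. Cd14, which passes lipopolysaccharide to Tlr4, was at 806, 580 and 1084 CPM in KO and at 743, 501, 846 and 806 CPM in WT. Ly96 (MD-2), the other subunit of the Tlr4 complex, was at 17.5 to 22.1 CPM in KO and 16.4 to 21.1 CPM in WT. Cd36, a scavenger receptor that assists Tlr2 with Tlr6, had a log2 fold change of 0.33 and Cd180, a Tlr4 homologue, of -0.55. The integrin subunit Itgam, at 1.24 to 3.60 CPM in KO and 0.764 to 2.15 CPM in WT, had a log2 fold change of 0.88 at this low level.

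Of the 8 genes for folding and routing, DESeq2 called 1, Cnpy3, lower in KO, against 3.02% of all genes. Cnpy3 is a chaperone that several receptors need to leave the endoplasmic reticulum. Cnpy3 was at 77.6, 87.7 and 78.5 CPM in KO and at 103.6, 98.4, 100.7 and 93.8 CPM in WT, without overlap. Its log2 fold change was -0.29, with adjusted p-values of 0.128 (edgeR) and 0.0390 (DESeq2). Unc93b1, which carries the endosomal receptors to their compartment, was at 431, 468 and 369 CPM in KO and at 413, 408, 404 and 493 CPM in WT, which gave a log2 fold change of -0.02 (95% interval -0.27 to 0.22) whose sign varied between alternatives. Hsp90b1, another chaperone of the receptors, had a log2 fold change of 0.11, Ap3b1 of -0.19, Rab7b of -0.28 and Tmed7 of -0.06. In this list 1 gene was higher and 7 were lower, with a median of -0.07.

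Among 10 enzymes that process the endosomal receptors or their ligands, DESeq2 called 1 higher and 1 lower, against 2.68% and 3.02% of all genes. Lgmn, a lysosomal protease that cleaves endosomal receptors, was at 609, 507 and 593 CPM in KO and at 390, 292, 312 and 498 CPM in WT. KO 2 lay just above WT 4. The log2 fold change of 0.61 (95% interval 0.22 to 1.01) had adjusted p-values of 0.136 (edgeR) and 0.0180 (DESeq2). Lgmn passed edgeR without WT 4 (0.0362), the WT library nearest to KO, where 284 genes were called over the whole table. With any other single library left out its edgeR adjusted p was 0.172 to 0.488. Pld4, an exonuclease that degrades single-stranded nucleic acids in endosomes, was at 289, 364 and 248 CPM in KO and at 394, 434, 442 and 382 CPM in WT, without overlap. Its log2 fold change of -0.46 had adjusted p-values of 0.133 (edgeR) and 0.0231 (DESeq2). The cathepsin Ctsl had a log2 fold change of 0.43, without overlap, Ctsb of 0.21, the nuclease Dnase2a of 0.13 and Ctss, the most abundant of the list, of -0.13. Of the 10 genes, 6 were higher and 4 lower, with a median of 0.13.

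Further down the pathway, the TAK1-binding protein Tab1 had the smallest p of the 17 kinases and ubiquitin ligases. It was at 6.60, 8.43 and 7.87 CPM in KO and at 12.9, 15.7, 14.1 and 9.54 CPM in WT, without overlap and with WT 4 nearest to KO. For Tab1 the log2 fold change was -0.77 (95% interval -1.19 to -0.36), with adjusted p-values of 0.102 (edgeR) and 0.00411 (DESeq2). Tab1 passed edgeR without WT 4 (0.0363), where 284 genes were called over the whole table, against 11 with all libraries. The edgeR adjusted p of Tab1 was 0.113 to 0.432 with any other single library left out. Tbk1, the kinase that activates Irf3, had a log2 fold change of 0.25 without overlap, Ikbkb of -0.28, Traf6 of 0.26, Ube2v1 of -0.19 and Peli1 of -0.26, none of them called. The list had 8 genes higher and 9 lower, with a median of -0.06. Among 12 transcription factors neither tool called any, and the median was 0.09. At an unadjusted p below 0.05, 1 was higher and 1 lower, against 9.15% and 8.85% of all genes. Irf8, which drives myeloid gene programmes, was at 142, 172 and 171 CPM in KO and at 189, 176, 210 and 201 CPM in WT. Rel had a log2 fold change of 0.57, Relb of 0.25, Irf7 of 0.48, Irf1 of 0.25 and Fos of -0.01, the last with a sign that varied between alternatives.

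Among 15 tested negative regulators neither tool called any, and the median was 0.08. At an unadjusted p below 0.05, 2 were higher and 3 lower, against 9.15% and 8.85% of all genes. Irak3 (IRAK-M), a kinase-dead brake on Myd88 signalling, was at 29.9, 33.5 and 28.6 CPM in KO and at 35.8, 41.2, 41.1 and 35.9 CPM in WT, without overlap. That gave a log2 fold change of -0.33, with adjusted p-values of 0.138 (edgeR) and 0.0602 (DESeq2). Tollip had a log2 fold change of -0.24, Ptpn6 of -0.32, Tnip1 of 0.37, Socs1 of 0.57 and Atf3 of -0.27, the last with a sign that varied between alternatives. Other pattern receptors gave 0 calls by either tool among 9 tested genes. The count at an unadjusted p below 0.05 was also 0, against 18.0% of all genes. Among them the beta-glucan receptor Clec7a was at 1764 to 2122 CPM in KO and 1761 to 2108 CPM in WT. In that list Ifih1 had a log2 fold change of 0.12, Ripk2 of 0.14, Nod2 of 0.23, Tmem173 (STING) of -0.06 and Mavs of -0.07, and the median was 0.06.

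Genes that the receptors are known to induce had the largest median of the 9 pathway lists, 0.72 over 14 tested genes, with 11 higher and 3 lower in KO. Among the marker lists of other cells, medians were 2.05 for endothelium, 0.93 for epithelium and, from 1 tested gene, 0.80 for plasmacytoid dendritic cells. They were 0.41 for T and NK cells, 0.40 for monocytes, 0.24 for conventional dendritic cells, 0.12 for B cells and -0.10 for neutrophils. The part of these cells in the list of induced genes was not tested. Of the induced genes DESeq2 called 1, Il1b, higher in KO, against 2.68% of all genes. Il1b was at 210.6, 209.5 and 240.0 CPM in KO and at 77.8, 118, 159 and 184 CPM in WT, without overlap. Its adjusted p was 0.184 by edgeR and 0.0415 by DESeq2. Of the 14, 6 had an unadjusted p below 0.05, all higher in KO, against 9.15% of all genes. Several were uneven between the KO libraries. The cytokine Il1a was at 434, 581 and 204 CPM in KO and at 226, 204, 265 and 210 CPM in WT, with KO 3 level with WT 2. The chemokine Cxcl1 was at 118, 56.9 and 7.43 CPM in KO and at 11.1, 27.2, 13.8 and 9.73 CPM in WT, with KO 3 the lowest of all 7. KO 3 was the lowest KO library for both, and leaving it out raised the genes called over the whole table from 11 to 217. Both then passed edgeR, Il1a at 1.17 on the log2 scale (adjusted p 0.0128) and Cxcl1 at 2.50 (adjusted p 0.0327). Neither passed with any other single library left out. Their edgeR adjusted p was then 0.198 to 0.515 for Il1a and 0.233 to 0.666 for Cxcl1. Ccl3 had a log2 fold change of 1.39, Ccl5 of 0.86 and Cxcl2 of 0.72, none called. The summed CPM of the list were 787 to 2723 in KO and 713 to 1263 in WT.

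**Figure D4:**
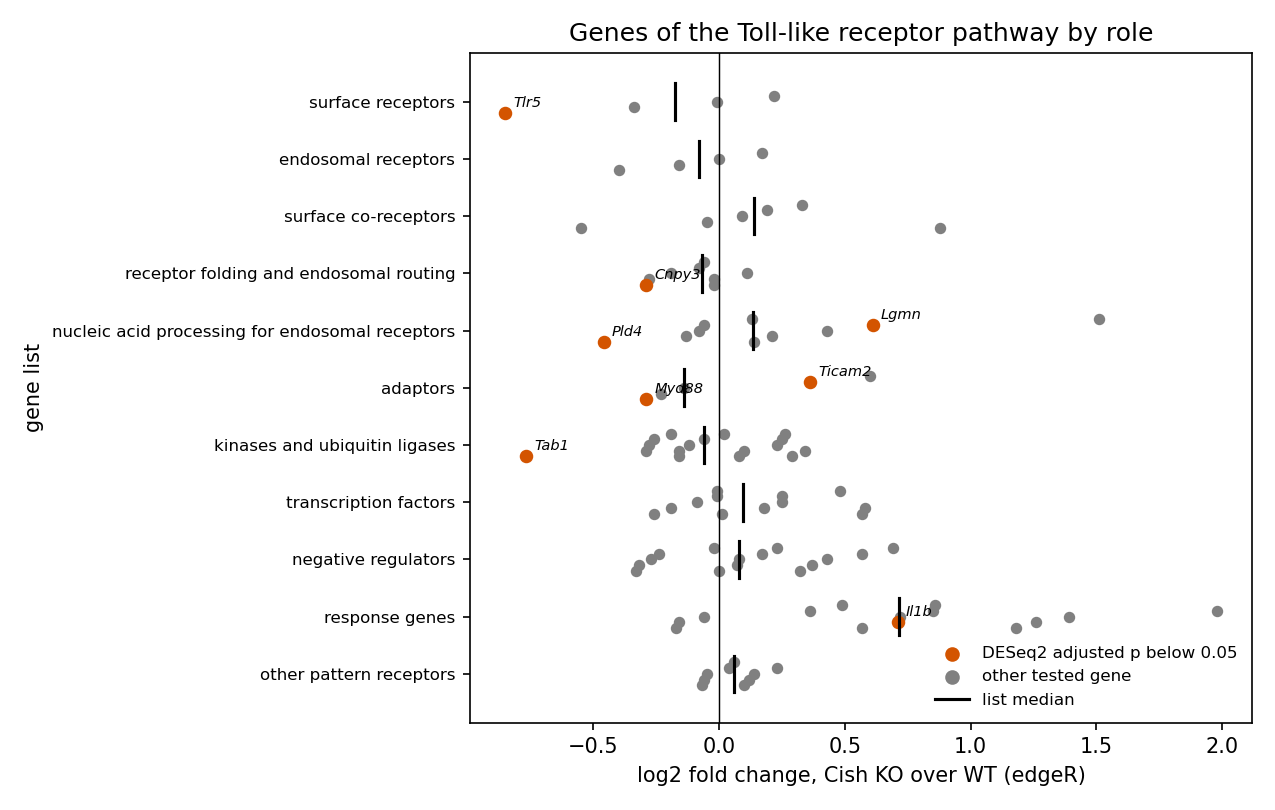
The log2 fold change of KO over WT by edgeR for each tested gene, by role, with black bars at the list medians and orange points for genes with a DESeq2 adjusted p below 0.05. Receptors have medians of -0.17 at the surface and -0.08 in endosomes, and response genes of 0.72.

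The genes whose pattern over the 7 libraries was most like that of Tlr5 were sought among 8121 tested genes with a mean of at least 10 CPM, by the root mean square difference of gene-centred log2 CPM. The nearest 5 were Slc9a9, an endosomal sodium-proton exchanger (0.11), Iqgap2, a scaffold protein (0.13), Ift122, an intraflagellar transport protein (0.14), Fam129a (0.14) and Bcar3, an adaptor of integrin signalling (0.15). Slc9a9 was at 6.64, 7.46 and 8.02 CPM in KO and at 10.3, 16.9, 11.7 and 11.2 CPM in WT. Iqgap2 was at 21.9, 26.0 and 22.3 CPM in KO and at 32.3, 47.5, 45.9 and 37.6 CPM in WT. These genes were chosen for this pattern, so their differences between the genotypes are a description and were not tested as a result.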

How the data were processed

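Raw read counts per gene symbol were deposited by the authors for 7 RNA-seq libraries. The name of the deposited table refers to rsubread, and the submitters' processing notes name mm10 and DESeq2. The Nextera XT kit named in the labels' protocols does not mark strand, and no source used here gives the annotation or the rule for multi-mapping reads. The 1036 rows without a symbol, with 0.376% to 0.424% of counts, were left out.

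The analysis used R 4.3.3 and edgeR 4.0.16 (filterByExpr, TMM factors, quasi-likelihood F test on genotype, 5 residual degrees of freedom) over all genes, with calls at a Benjamini-Hochberg adjusted p below 0.05. SE and 95% intervals come from the F statistic. Log2 CPM used a prior count of 2. Alternatives used DESeq2 1.42.0, limma 3.58.1, other scaling and filters, and fewer libraries. The members, lists and tests were chosen with earlier results of these data known. Named genes were all receptors, Cish, up to 5 genes with the smallest edgeR p and the most abundant gene of each pathway list, protein-coding genes within 100 kb of Tlr9, and the 5 genes most like the receptor with the smallest p. Unc93b1, Sarm1, Siglecf, the epithelial genes and the called genes farther from Tlr9 were named after their values were seen.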

Additional observations from a re-analysis of the deposited data

Results flagged for a closer look

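Dixon's test marked 7 of 89 named genes for a WT library far from the other 3, and chance alone marks about 1 in 20 groups. Ctss was at 6914 CPM in WT 4 and at 5323 to 5550 CPM in the others. Hsp90b1 was at 1332 CPM in WT 4 and at 1160 to 1187 CPM in the others. Ticam1 was at 7.54 CPM in WT 4 and at 4.81 to 5.26 CPM in the others. Fos was at 1502 CPM in WT 3 and at 765 to 837 CPM in the others. Peli1 was at 333.6 CPM in WT 1 and at 262.2 to 274.1 CPM in the others. Unc93b1 was at 492.6 CPM in WT 4 and at 403.9 to 413.3 CPM in the others. Of the receptors, Tlr9 alone was marked, through its only read, 0.0318 CPM in WT 3 against 0 in the others. The test was not run on the 3 KO libraries.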

How the results depend on the processing

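The number of genes called over the whole table was 11 by edgeR and moved to 753 with DESeq2, 397 with no filter, 21 with a filter of 5 CPM in 3 libraries, 46 with limma voom and quality weights and 590 with WT 4 and KO 3 left out together. Leaving out each library in turn gave 7 (without WT 1) to 284 (without WT 4), with 217 without KO 3. Receptors called were 0, or 1 (Tlr5) with DESeq2 and with no filter. Other pathway genes called were 0, or 7 with DESeq2, 2 with no filter, 6 with WT 4 and KO 3 left out together and 0 to 4 with each library left out. The replicate numbers were not shown to pair the libraries: deviations of equal-numbered KO and WT libraries correlated at -0.01, 0.14 and -0.02 across genes. With the replicate block 430 genes, 0 receptors and 6 pathway genes were called. In that fit WT 4 has no KO library of its number, so it adds nothing to the genotype difference. Over the 82 named genes that were tested and 15 alternatives, 67 values newly passed the threshold, and 0 called values lost it or changed sign. Of these genes only Alas1, Rpl29, Abhd14b and Parp3 were called in the comparison of all libraries, so few calls could be lost. All but Alas1 were named after their values were seen. Over the whole table, 7 of the 11 called genes were called again without KO 1, KO 2, WT 1 or WT 2. Surface minus endosomal level differed by -0.15, from -0.22 to -0.10 with each library left out, and by 0.05 over the 8 tested receptors without Tlr5. RLE factors, and library sizes alone, moved none of these counts by over 1.5 times. Depth limits Tlr1 and Tlr9, which 12 reads or fewer per library cannot compare.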

Other observations

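The ratio of Tlr2 to Tlr4, each per kilobase of exon, was chosen after the values were seen. It was 13.1, 13.2 and 10.2 in KO 1 to KO 3 and 16.8, 22.8, 20.1 and 12.6 in WT 1 to WT 4. WT 4 lay within the KO range and the other WT libraries above it. No test was made of this ratio.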
